A study of Mus musculus with 9 samples.

Results

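Tuft cells are rare chemosensory cells of the intestinal epithelium. The octamer-binding factor Pou2f3 drives their differentiation, a taste-like calcium cascade that ends at the cation channel Trpm5 relays luminal signals, and their products include interleukin 25, cysteinyl leukotrienes and prostaglandin D2. In the small intestine, IL-25 from tuft cells acts on group 2 innate lymphoid cells, whose IL-13 in turn favors the formation of more tuft cells, whereas in the colon tuft cells are a minor population that is commonly followed through Dclk1.

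A set of 10 genes that mark these cells was followed in the colonic mucosa, picked by name as known tuft cell markers, out of 54146 genes listed in the RNA-seq table. They were the transcription factors Pou2f3 and Gfi1b, the channel Trpm5, the kinase Dclk1, the actin-binding protein Avil (advillin), the adaptor protein Sh2d6, the eicosanoid genes Alox5ap, Ltc4s and Hpgds, and the IL-25 receptor subunit Il17rb. All 10 were found, and all 10 passed the filter on low values (10 or more normalized reads in 4 or more mice), which left 14410 genes for the tests.

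The mucosa came from 9 C57BL/6J mice at 15 wk of age. The control group was 5 ApcMin/+ mice, 2 females (replicates 1 and 5) and 3 males, which carry a heterozygous germline Apc mutation that starts intestinal adenomas. The other group was 4 ApcMin/+; p16cis/cis mice, 3 females and 1 male (replicate 1), which carry the same Apc mutation and in addition, on both p16 alleles, an inserted cis-element that draws DNA methylation to the p16 promoter; they are called p16cis/cis mice from here on. The alleles are carried in the germline and so are present in all cells of the mucosa, and according to the methods the RNA was taken from colonic crypts. The libraries held 13523500 to 17885918 reads on genes, and each value is a read count divided by a size factor of its mouse. The mitochondrial share of the reads was 8.74 to 15.6% in ApcMin/+ mice and 19.3 to 29.8% in p16cis/cis mice, with no overlap, so the genotypes differed in this measure of the libraries as well. Epithelial markers were abundant (Epcam had at least 24444 in each mouse), while the mast cell genes Tpsab1 and Ms4a2 were listed at 0 in all mice and no granulocyte marker passed the filter. In bulk mucosa, fewer tuft cells and less RNA per tuft cell cannot be told apart.

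Levels of different genes were compared per kilobase of the longest annotated transcript. On this scale Sh2d6 had the highest level of the 10 (290 ± 161, SD over 9 mice), and it stood above the next gene, Trpm5 (116 ± 61.9), in 9 of 9 mice. Avil (85.8 ± 38.0), Ltc4s (74.9 ± 47.2), Dclk1 (55.9 ± 33.4), Alox5ap (48.4 ± 20.5), Hpgds (42.8 ± 11.8), Pou2f3 (33.5 ± 14.9), Il17rb (22.4 ± 6.48) and Gfi1b (13.9 ± 9.68) followed in this order. The step from Sh2d6 to Trpm5 was larger than the SDs of both genes, and none of the other 8 steps between neighbors exceeded both SDs. Trpm5 was above Avil, and Il17rb above Gfi1b, in 8 of 9 mice. Dclk1 was above Alox5ap, and Alox5ap above Hpgds, in only 5 of 9 mice. Without the length correction Trpm5 came first, followed by Dclk1 and Sh2d6, and Ltc4s, with an annotated transcript of 716 nt, moved from rank 4 to rank 9.

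The first question was whether the tuft cell genes differed between the genotypes. The means of 8 of the 10 were higher in p16cis/cis mice, as were those of 49.6% of all genes tested, and the median log2 difference over the 10 was 0.55, against -0.00 over all genes tested. Only Ltc4s was called higher at an adjusted p under 0.05 by limma with Benjamini-Hochberg adjustment over the 14410 genes, 1 of 10 where 8.14% of all genes were called higher. None of the 10 was called lower, where 8.75% of all genes were, and 3 of the 10 had an unadjusted p under 0.05 in either direction (Ltc4s, Sh2d6 and Hpgds), where 33.2% of all genes had one. Under the stricter rule that also asks for a fold change over 2, Ltc4s was still called, beside 1.83% of all genes. With a set of 10, a single call is a share of 10%, close to the 8.14% of all genes. DESeq2 and the fit with a replicate block each called 2 of the 10 higher, beside 1526 of 29946 and 979 of 14410 genes. With sex as a covariate, in females only or with the mitochondrial share as a covariate the count was 0. Of all 14410 genes, these fits called 676, 519 and 0 higher. The replicate block matches mice by replicate number, although same-numbered mice did not vary together (mean correlation 0.02).

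**Figure D1:**
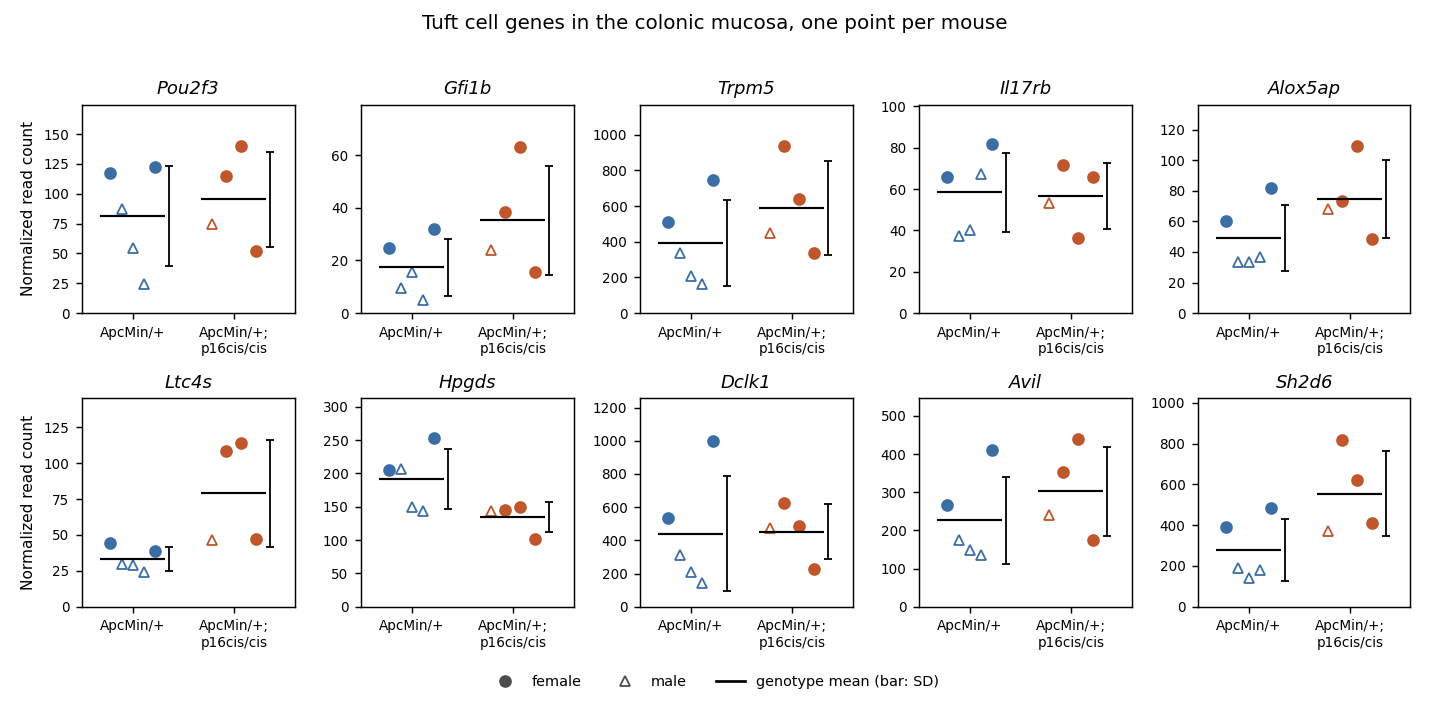
Normalized read count (linear axis from 0) of each of the 10 tuft cell genes in 5 ApcMin/+ and 4 ApcMin/+; p16cis/cis mice, one point per mouse, filled circles for females and open triangles for males, with the genotype mean as a line and the SD as a bar. For Ltc4s all p16cis/cis mice lie above all ApcMin/+ mice, from 46.7 upward against 44.6 at most, while the genotypes overlap for the other 9 genes.

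Among the eicosanoid genes, Ltc4s encodes leukotriene C4 synthase, which joins glutathione to leukotriene A4 to form the first cysteinyl leukotriene. Its normalized read counts were 44.6, 29.5, 29.3, 24.2 and 38.6 in ApcMin/+ replicates 1 to 5 and 46.7, 108, 114 and 47.0 in p16cis/cis replicates 1 to 4. Every p16cis/cis mouse was above every ApcMin/+ mouse, although the lowest p16cis/cis mice and the highest ApcMin/+ mouse nearly met, and 16.2% of all genes tested had genotypes that did not overlap. Ltc4s averaged 33.2 ± 8.23 (SD, n = 5) in the ApcMin/+ group against 79.1 ± 37.3 (SD, n = 4) in the p16cis/cis group, a log2 difference of 1.13 (SE 0.33, adjusted p = 0.0373 by limma). An exact two-sided permutation test over all ways to place the mice in the genotypes gave p = 0.00794, the smallest value this design allows. The gene was covered by 19 to 76 reads per mouse.

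The call on Ltc4s rested on single mice. The adjusted p of limma was 0.0790 without ApcMin/+ replicate 2, 0.0821 without ApcMin/+ replicate 3, 0.115 without p16cis/cis replicate 2 and 0.0930 without p16cis/cis replicate 3, with log2 differences of 1.10, 1.10, 0.94 and 0.91. With sex as a covariate it was 0.0880 (log2 difference 0.90), and in females alone, 2 against 3, it was 0.181 (log2 difference 0.99). With the replicate block, which has no partner for ApcMin/+ replicate 5 and so drops it, it was 0.0581. With the mitochondrial share as a covariate the log2 difference was 0.10 and the adjusted p 0.983, and in that fit no gene of the 14410 was called. Genotype took 78.1% of the variance of the mitochondrial share, so genotype differences are poorly determined in this fit, here and below. Over 22 alternatives the adjusted p was under 0.05 in 13, and the p16cis/cis mean was higher in all 22.

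Leukotriene C4 synthase is also made by mast cells and eosinophils, so their markers are given beside it. Of 10 mast cell markers 5 were tested, 0 were called in either direction, and their median log2 difference was 1.03. Tpsab1 and Ms4a2 were listed at 0 in all mice and Cpa3 had at most 4.51, while the summed level of the list, most of it Kit, was 1477 to 1939 in ApcMin/+ mice and 1285 to 1672 in p16cis/cis mice. The mast cell protease genes Mcpt1 and Cma1 had log2 differences of 1.03 and 1.08 (adjusted p = 0.241 and 0.0882 by limma). The eosinophil peroxidase gene Epx had at most 9.57 in any mouse. The part of these cells in the difference of Ltc4s was not tested.

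Ltc4s (ENSMUSG00000020377.15) lies on chromosome 11 from 50236461 to 50238616, on the minus strand, in the GENCODE M21 annotation of GRCm38. The stretch upstream of it is shown because Ltc4s was the only gene of the 10 called between the genotypes. It runs from 250 to 85 bases before the RefSeq start, chr11:50238617-50238782 of GRCm38.p6 on the minus strand, and overlaps no annotated GENCODE exon:
Ltc4s: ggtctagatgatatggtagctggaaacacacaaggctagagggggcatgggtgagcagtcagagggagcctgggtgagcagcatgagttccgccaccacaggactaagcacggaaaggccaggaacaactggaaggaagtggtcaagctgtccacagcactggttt
Pou2f3 belongs to the POU factors, which bind the octamer ATGCAAAT, and this octamer was searched on both strands in the RefSeq promoter windows, 250 bases before to 50 after each start. The windows of 8 of the 10 genes were at hand, 9 windows in all since Dclk1 has a pair of starts. The Ltc4s window did not hold the octamer, and of the 9 windows only that of Hpgds did, against 570 of 32851 windows (1.74%) over all genes. In the Hpgds window it stood, in the orientation printed here, 174 to 167 bases before the RefSeq start, and 30 bases around it, which overlap an annotated GENCODE exon of Hpgds, are shown with the octamer in capitals (chr6:65144886-65144915 of GRCm38.p6, minus strand):
Hpgds: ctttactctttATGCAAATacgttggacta
A match of these letters is a description of the sequence and not a binding site.

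Hpgds encodes the hematopoietic prostaglandin D synthase, which turns prostaglandin H2 into prostaglandin D2, and its difference had the opposite sign to that of Ltc4s. Its normalized read counts were 205, 207, 149, 144 and 253 in ApcMin/+ replicates 1 to 5 and 144, 145, 150.3 and 102 in p16cis/cis replicates 1 to 4. ApcMin/+ replicates 1, 2 and 5 were above all p16cis/cis mice, and the other ApcMin/+ mice overlapped with them. The means were 192 ± 45.6 (SD, n = 5) and 135 ± 22.5 (SD, n = 4), a log2 difference of -0.48 (SE 0.20, adjusted p = 0.119 by limma), and the exact two-sided permutation p was 0.0952. Without ApcMin/+ replicate 4 the log2 difference was -0.58 and the adjusted p of limma was 0.0494, so that Hpgds was then called lower.

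Alox5ap encodes FLAP, the membrane protein that presents arachidonic acid to 5-lipoxygenase for leukotriene synthesis. Its normalized read counts were 60.3, 33.3, 33.2, 36.9 and 81.7 in ApcMin/+ replicates 1 to 5 and 68.2, 73.4, 109.7 and 48.6 in p16cis/cis replicates 1 to 4. The 3 ApcMin/+ males were the lowest of the 9 mice, and both ApcMin/+ females fell among the p16cis/cis mice. The log2 difference was 0.64 (SE 0.33, adjusted p = 0.195 by limma).

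Of the other genes of leukotriene and prostaglandin metabolism, 6 of 14 passed the filter and 1 was called lower, none higher, with a median log2 difference of -0.26. The gene called was Ggt1, a gamma-glutamyl transferase that can trim leukotriene C4 to leukotriene D4. It had 138, 154, 307, 285 and 117 in ApcMin/+ replicates 1 to 5 and 36.6, 51.0, 33.1 and 21.9 in p16cis/cis replicates 1 to 4. All p16cis/cis mice were far below all ApcMin/+ mice (log2 difference -2.41, SE 0.33, adjusted p = 0.00213 by limma), and the adjusted p was under 0.05 in 21 of 22 alternatives, the exception being the mitochondrial share as a covariate (0.848). Alox5, the 5-lipoxygenase itself, had a log2 difference of 0.59 (adjusted p = 0.430 by limma), and ranged from 53.4 to 261 between mice. The more abundant Dpep1, Lta4h and Pla2g4a had log2 differences of -0.62, -0.15 and -0.22 (adjusted p = 0.144, 0.253 and 0.437 by limma). The prostaglandin D synthase Ptgds, the leukotriene receptors Cysltr1 and Cysltr2 and the prostaglandin D receptors Ptgdr and Ptgdr2 did not pass the filter.

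Sh2d6, an SH2 domain protein that is a strong marker of tuft cells, had a difference of nearly the same size as Ltc4s without being called. Its normalized read counts were 391.7, 187, 139, 181 and 486 in ApcMin/+ replicates 1 to 5 and 370.0, 817, 624 and 409 in p16cis/cis replicates 1 to 4. The 3 ApcMin/+ males were the lowest mice, the male p16cis/cis mouse came next, and all 5 females lay above all 4 males when the genotypes were put together. The log2 difference between the genotypes was 1.10 (SE 0.36, adjusted p = 0.0574 by limma). It was called under DESeq2 (adjusted p = 0.0300), with the replicate block (0.0335), without ApcMin/+ replicate 1 (0.0456) and without ApcMin/+ replicate 5 (0.0238), and not with sex as a covariate (0.0709 by limma). The identifier of Sh2d6 in the table has another version than in GENCODE M21, from which its transcript length was taken.

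Trpm5, the calcium-activated cation channel at the end of the taste-like cascade, had 510.0, 338, 205, 163 and 746 in ApcMin/+ replicates 1 to 5 and 448, 935, 637 and 337 in p16cis/cis replicates 1 to 4. Replicate 5 was the highest and replicate 4 the lowest of the ApcMin/+ mice, and the genotypes overlapped widely. The log2 difference was 0.70 (SE 0.42, adjusted p = 0.268 by limma), and with the replicate block, which drops ApcMin/+ replicate 5, it was 0.99 (adjusted p = 0.0430 by limma). In females alone it was -0.0748.

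Dclk1, the doublecortin-like kinase used to stain tuft cells, had the widest range of the 10 after Gfi1b, 7.10-fold between the highest and the lowest mouse. The values were 535, 314, 209.7, 141 and 1001 in ApcMin/+ replicates 1 to 5 and 472, 625, 484 and 226 in p16cis/cis replicates 1 to 4. ApcMin/+ replicate 5 was the highest of all mice, replicate 4 the lowest, and the p16cis/cis mice lay between them. The means of 440.1 ± 347 (SD, n = 5) and 452 ± 166 (SD, n = 4) were nearly equal (log2 difference 0.29, SE 0.49, adjusted p = 0.716 by limma). The log2 difference was -0.84 in females alone, -0.0682 with sex as a covariate and -0.0322 without ApcMin/+ replicate 4, so that its sign depended on the setting.

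Avil, an actin-regulating protein of the villin family, had 266, 176, 147, 135 and 409.8 in ApcMin/+ replicates 1 to 5 and 239.9, 354, 439 and 175 in p16cis/cis replicates 1 to 4. The ApcMin/+ males and p16cis/cis replicate 4 were low, and the genotypes overlapped (log2 difference 0.46, SE 0.34, adjusted p = 0.383 by limma).

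Of the transcription factors, Pou2f3, without which tuft cells do not form, had 117, 87.5, 54.6, 24.2 and 123 in ApcMin/+ replicates 1 to 5 and 74.5, 115, 139.7 and 51.7 in p16cis/cis replicates 1 to 4. The genotypes overlapped, and the lowest mouse was again ApcMin/+ replicate 4 (log2 difference 0.34, SE 0.45, adjusted p = 0.645 by limma). Gfi1b, a transcriptional repressor of tuft cells that also acts in the erythroid and megakaryocyte lineages, was the least covered gene, with 4 to 42 reads per mouse. It had 24.5, 9.51, 15.6, 5.08 and 31.8 in ApcMin/+ replicates 1 to 5 and 24.0, 38.3, 63.1 and 15.7 in p16cis/cis replicates 1 to 4. Both genotypes spanned a wide range and overlapped (log2 difference 1.05, SE 0.54, adjusted p = 0.195 by limma). Of 8 platelet and erythroid markers, 6 were tested, of which 1 had a higher mean in p16cis/cis mice, and their median log2 difference was -0.81. The hemoglobin gene Hbb-bs reached 2539 in ApcMin/+ replicate 5, so blood RNA was present. Its part in Gfi1b was not tested.

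Il17rb, the subunit of the IL-25 receptor that binds the cytokine, had the smallest difference between the genotypes of the 10. Its normalized read counts were 65.8, 37.1, 39.999, 67.4 and 81.7 in ApcMin/+ replicates 1 to 5 and 53.0, 71.8, 36.1 and 65.8 in p16cis/cis replicates 1 to 4. ApcMin/+ replicate 4, the lowest mouse for 7 of the 10 genes within its genotype, was the second highest of its group here (log2 difference -0.02, SE 0.30, adjusted p = 0.967 by limma). The IL-25 gene itself had between 0.951 and 7.81 and did not pass the filter, and Il13 and Il9 were listed at 0 in all mice.

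**Figure D2:**
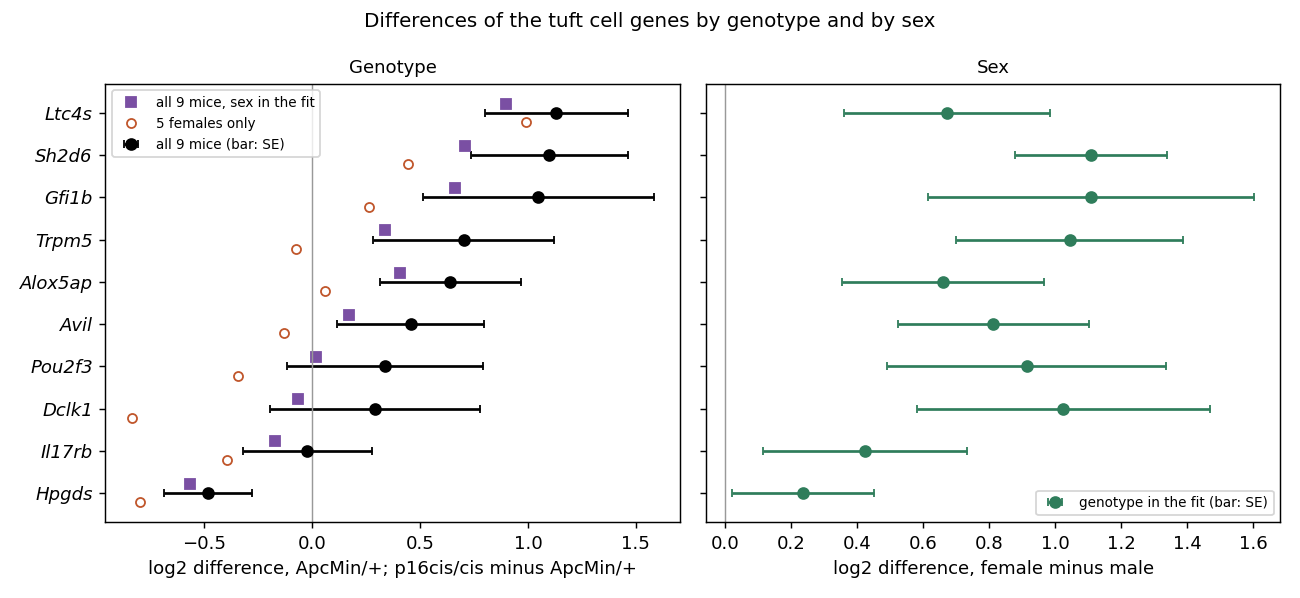
Left, log2 difference between the genotypes for each of the 10 tuft cell genes from all 9 mice (circles, bars are SE), with sex in the fit (squares) and from the 5 females alone (open circles). Right, log2 difference between females and males with genotype in the fit (bars are SE). With sex in the fit or in females alone each estimate lies to the left of that from all mice, and all 10 sex differences are above 0, from 0.23 for Hpgds to 1.11 for Gfi1b and Sh2d6.

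The genotypes held unequal shares of females, so the 10 genes were also compared by sex, a comparison chosen after the values were seen. With genotype in the fit, the mean of all 10 genes was higher in females, as it was for 49.4% of all genes tested, and the median log2 difference, female minus male, was 0.86, against -0.00 over all genes. At an unadjusted p under 0.05 by limma, 5 of the 10 were higher in females (Gfi1b, Trpm5, Dclk1, Avil and Sh2d6), where 2.41% of all genes were. After adjustment over all genes 0 of the 10 were called, with adjusted p-values from 0.317 to 0.992, where 0.00694% of all genes were called higher in females. edgeR with TMM gave all 10 higher in females as well. Most of the 10 genes varied together from mouse to mouse within a genotype (median r = 0.81 over the pairs, given below). Counts of these genes by sex or by genotype are therefore not counts of separate observations.

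In ApcMin/+ mice alone, both females were above all 3 males for 8 of the 10 genes, all but Il17rb and Hpgds, where 12.2% of all genes tested showed this order. Across all mice Sh2d6 alone had every female above every male, an order that 0.867% of all genes showed. Its mean was 545 ± 177 (SD, n = 5) in females and 219 ± 103 (SD, n = 4) in males, a log2 difference of 1.11 (SE 0.23, adjusted p = 0.317 by limma). When mice were exchanged within their genotype only, over 40 arrangements, the exact two-sided permutation p was 0.025 for Sh2d6 and for Ltc4s, the smallest value that can be reached, and at least 0.075 for the other 8 genes. The male p16cis/cis group is 1 mouse, which was above p16cis/cis replicate 4, a female, for 7 of the 10 genes.

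The sex difference leaned on single mice too. The number of genes with an unadjusted p under 0.05 was 1 without ApcMin/+ replicate 5, 3 without ApcMin/+ replicate 1, ApcMin/+ replicate 4, p16cis/cis replicate 2 or p16cis/cis replicate 3, and 8 without p16cis/cis replicate 4. In each of these fits the mean of all 10 genes stayed higher in females. On reads scaled outside mitochondrial genes the number was 3. The share of all genes at this p was not computed for these fits, so the counts have no background to be set against. A term for a genotype difference that depends on sex was below 0 for 9 of the 10 genes, that is, the difference, p16cis/cis minus ApcMin/+, was lower on the signed scale in females than in males, but none was called (adjusted p = 0.722 to 0.939 by limma, 1 unadjusted p under 0.05, for Dclk1). In that fit the single male p16cis/cis mouse determines its own group. In females alone the log2 difference was -0.84 for Dclk1, -0.80 for Hpgds and -0.40 for Il17rb.

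Markers of other cell types were compared by sex in the same fit. At an unadjusted p under 0.05, which 2.41% of all genes reached with a higher level in females, 4 of 6 tested platelet and erythroid markers, 3 of 7 stroma and muscle markers, 3 of 7 goblet cell markers and 2 of 7 T cell markers were higher in females, and none of these 4 lists had a marker that was lower. The macrophage, B and plasma cell and absorptive colonocyte lists had 0 in either direction, and the enteroendocrine list had 1 that was lower in females. Epithelial markers had 0 of 6 in either direction, with a median log2 difference of -0.04. The medians were 1.42 for platelet and erythroid, 1.18 for T cell and 1.06 for stroma and muscle markers. That of the tuft cell genes was 0.86. Mast cell markers had 1 of 5 higher in females, 0 lower, and a median of 0.75. Medians were 0.37 for macrophage, 0.33 for B and plasma cell and 0.30 for goblet cell markers. They were below 0 for absorptive (-0.23), enteroendocrine (-0.24) and enteric neuron and glia markers (-0.12). The summed level of the T cell markers was 44.5 in ApcMin/+ replicate 4 and 771 in ApcMin/+ replicate 5. These were the lowest and the highest of the 9 mice, and the same mice were lowest and highest for most tuft cell genes of their genotype. In p16cis/cis replicates 1 to 4 the sum was 220, 345, 289 and 384. There replicate 4 had the highest T cell sum, although it was the lowest of its genotype for most tuft cell genes. The part of these cells in the sex difference of the tuft cell genes was not tested.

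Within a genotype, most of the 10 genes varied together from mouse to mouse. Their median SD within a genotype was 0.66 on the log2 scale (0.31 to 0.94), against 0.26 over all genes tested. ApcMin/+ replicate 5 had the highest level of its genotype for 9 of the 10 genes and ApcMin/+ replicate 4 the lowest for 7. Among p16cis/cis mice replicate 4 was the lowest for 7 of the 10, and replicates 2 and 3 shared the highest places, 4 and 6.

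Over the 9 mice, with the genotype means removed, 42 of the 45 pairs of genes were positively correlated. By Pearson correlation 28 pairs had an adjusted p under 0.05 in an exact permutation of mice within genotype (2880 arrangements, Benjamini-Hochberg over the 45 pairs), and by Spearman correlation 29 had. The median r was 0.81, whereas over all 103816845 pairs of genes tested it was -0.00, and 23 of the 45 pairs were above 0.8, against 2.12% of all pairs. The closest pair was Trpm5 and Dclk1 (r = 0.96, adjusted p = 0.0156; rho = 0.95, adjusted p = 0.0241; exact permutation), and r was 0.93 after the 2 mice farthest from the median of Trpm5 were left out. Alox5ap and Avil had r = 0.95, and Dclk1 and Hpgds had r = 0.94, although Hpgds differed from Dclk1, Alox5ap and Avil in the sign of its genotype difference.

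With all 9 mice, Il17rb stood outside this pattern. None of its 9 pairs had an adjusted p under 0.05, and its r ran from -0.09 with Pou2f3 to 0.54 with Sh2d6. All negative pairs were pairs of Il17rb, while Hpgds had a positive r in all 9 of its pairs (median 0.79). Without Il17rb and Hpgds, all 28 remaining pairs were positive, with r from 0.63 to 0.96, and 24 had an adjusted p under 0.05. These correlations share the same 9 libraries. After the 2 mice farthest from the median were left out of each pair, the median r over the 45 pairs was 0.77 and the lowest 0.30. For the 9 pairs of Il17rb the median r was then 0.47 (0.30 to 0.77), against 0.19 with all mice, so its separate place depended on few mice. When the means of each genotype and sex were removed, which leaves 8 mice since the single male p16cis/cis mouse has no deviation of its own, 37 of the 45 pairs were positive and 15 were above 0.8 (median r = 0.71, no test). Without p16cis/cis replicate 4 none of the pairs had an adjusted p under 0.05, without ApcMin/+ replicate 4 the count was 15 and without ApcMin/+ replicate 5 it was 16, while the median r stayed between 0.77 and 0.84 whichever mouse was left out.

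**Figure D3:**
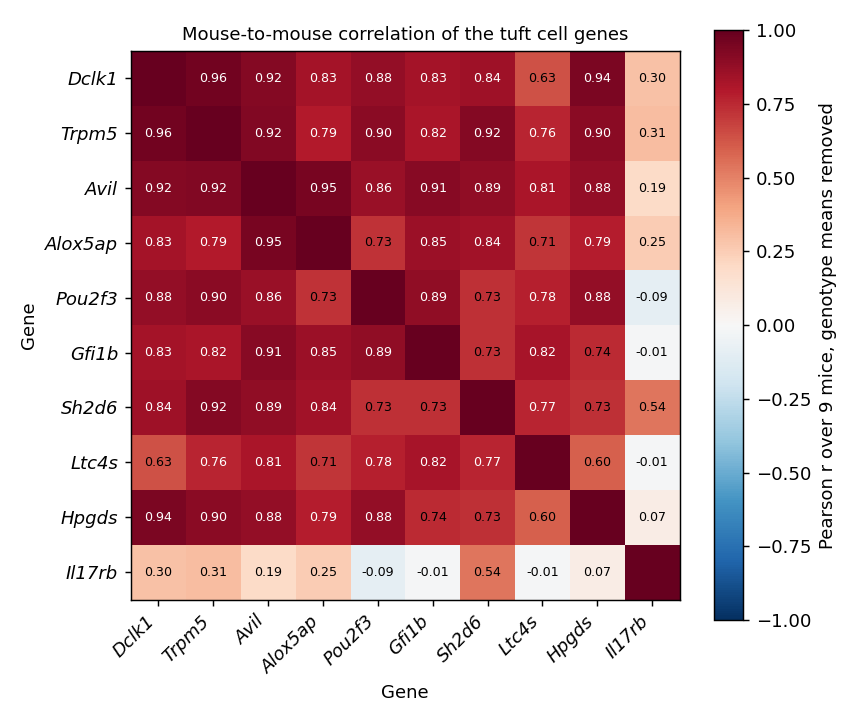
Pearson correlation of each pair of the 10 tuft cell genes over 9 mice on the log2 scale, after the genotype means were removed; color and printed number give r, and the diagonal is 1 by construction. The block from Dclk1 to Hpgds is positive throughout, and Il17rb in the last row and column ranges from -0.09 to 0.54.

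Further genes known from tuft cells were examined as lists. Over 4 lists (transcription factors, chemosensory signaling, cytoskeleton and intracellular signaling, and surface and secreted proteins) 45 of 53 genes in the table were tested. Between the genotypes 0 of the 45 were called higher and 1 was called lower, where 8.14% and 8.75% of all genes were, with a median log2 difference of 0.07. By sex, 37 of the 45 had a higher mean in females, where 49.4% of all genes had. At an unadjusted p under 0.05 by limma 11 were higher in females, where 2.41% of all genes were, and 1 was lower. The 11 included the kinases Bmx and Matk (log2 differences, female minus male, of 1.16 and 0.97), the receptor Siglecf (1.35) and the transcription factor St18 (1.23), and several of them, such as Vav1 and Inpp5d, are also used by blood cells. Of the 69 tested markers of other cell types, 13 were higher in females by the same rule and 1 was lower.

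Of the transcription factors, 8 were tested and none was called. Sox9, Atoh1 and Runx1 were abundant, and Sox9 and Atoh1 had log2 differences of 0.45 and -0.21 (adjusted p = 0.152 and 0.467 by limma). Of the chemosensory genes, which include the G protein subunit Gnat3 and the phospholipase Plcb2, 9 of 14 were tested. Rgs2, a regulator of G protein signaling that many cells use, was called lower, with 315, 409.8, 259.5, 381 and 342 in ApcMin/+ replicates 1 to 5 and 235, 204, 269 and 109.7 in p16cis/cis replicates 1 to 4. A single p16cis/cis mouse overlapped with the lowest ApcMin/+ mouse (log2 difference -0.79, SE 0.24, adjusted p = 0.0408 by limma). The adjusted p of Rgs2 rose to between 0.0626 and 0.0956 without ApcMin/+ replicate 1, 2 or 5 or p16cis/cis replicate 2 or 4. The call was also lost with sex as a covariate (0.0942 by limma), in females only (0.158), with the replicate block (0.0819), with the mitochondrial share as a covariate (0.895) and with edgeR under upper quartile scaling (0.0502). Plcb2 had a log2 difference of 1.14 (adjusted p = 0.0861 by limma), and Gnat3, the taste G protein, had -0.62 (adjusted p = 0.476 by limma).

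Among the 16 cytoskeleton and signaling genes, all tested, none was called; the villin gene Vil1 and the keratin gene Krt18, which other epithelial cells also express, had log2 differences of -0.30 and 0.39 (adjusted p = 0.1004 and 0.0876 by limma). Among the surface and secreted genes 12 of 15 in the table were tested and none was called. Siglecf and the acetylcholine-making enzyme Chat had log2 differences of 0.01 and -0.16 (adjusted p = 0.995 and 0.831 by limma).

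In the type 2 cytokine circuit, 9 of 18 genes were tested. Il13ra1, a chain of the receptor through which IL-13 acts on epithelial cells, was called lower, with 2959, 2874, 2754, 2249.9 and 2793 in ApcMin/+ replicates 1 to 5 and 2089.9, 1892, 2146 and 1411 in p16cis/cis replicates 1 to 4. The genotypes did not overlap, with p16cis/cis replicate 4 the lowest (log2 difference -0.54, SE 0.13, adjusted p = 0.0195 by limma), and the adjusted p was 0.0502 without that mouse, 0.0592 in females only and 0.852 with the mitochondrial share as a covariate. Its partner Il4ra and the shared factor Stat6 had log2 differences of -0.27 and 0.06 (adjusted p = 0.147 and 0.663 by limma). Retnlb, a goblet cell product that rises in type 2 responses, was the most variable, with 3014, 2147, 1773, 806 and 13084 in ApcMin/+ replicates 1 to 5 and 4267, 7809.8, 11814 and 18072 in p16cis/cis replicates 1 to 4. ApcMin/+ replicate 5 was as high as the p16cis/cis mice, and the genotypes overlapped (log2 difference 1.81, SE 0.65, adjusted p = 0.0730 by limma).

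**Figure D4:**
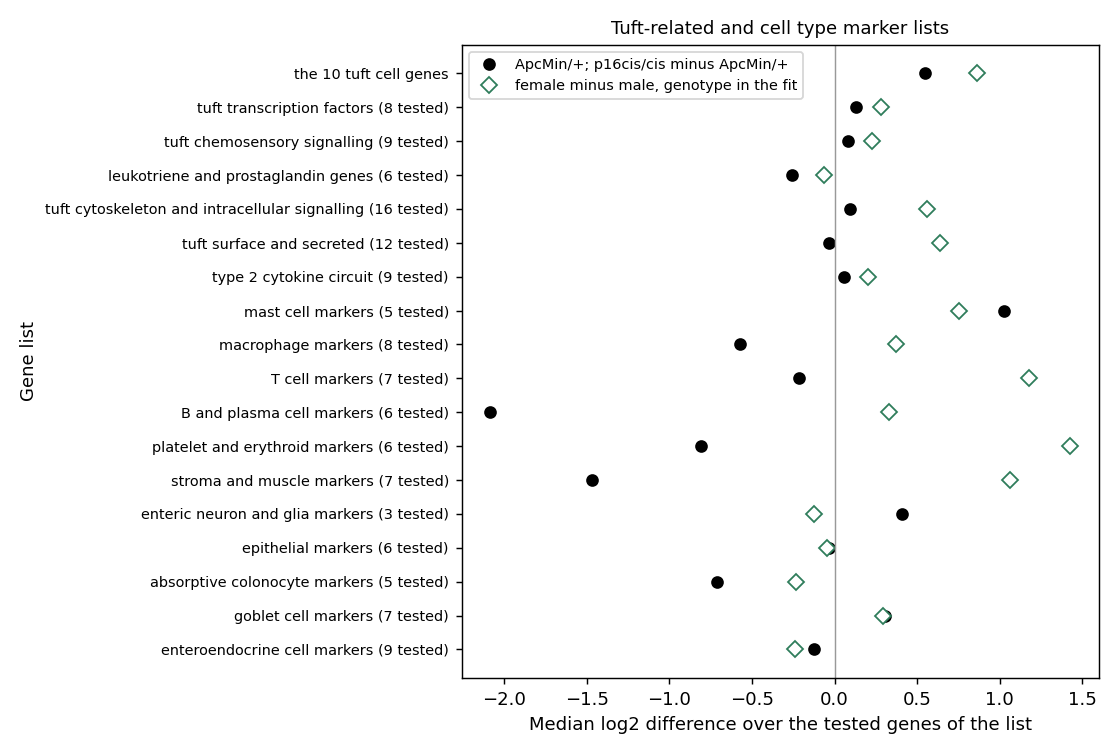
Median log2 difference over the tested genes of each list, between the genotypes (filled circles) and between females and males with genotype in the fit (open diamonds); the number tested stands beside each list name. The 10 tuft cell genes are at 0.55 for genotype and 0.86 for sex, the 6 epithelial markers are near 0 in both, and the B and plasma cell and stroma lists lie lowest by genotype. By sex the platelet and erythroid (1.42), T cell (1.18) and stroma and muscle (1.06) lists lie above the tuft cell genes, and by genotype the mast cell list (1.03) does.

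Of the marker lists of other cell types, 69 of 95 genes were tested, 3 were called higher and 7 lower in p16cis/cis mice, where 8.14% and 8.75% of all genes were. Those higher were the absorptive cell gene Slc37a2 (log2 difference 1.07, adjusted p = 0.0368 by limma), the goblet cell gene Spink4 (1.41, 0.0139) and the enteroendocrine hormone gene Insl5 (1.24, 0.0211). Those lower were the macrophage gene Lyz2 (-1.56, 0.00745), the plasma cell gene Jchain (-2.65, 0.0175), the erythroid gene Alas2 (-3.34, 0.0236), the collagen gene Col3a1 (-2.92, 0.0414), the colonocyte transporter gene Slc26a3 (-1.23, 0.00848) and the enteroendocrine granin genes Chga (-0.69, 0.0373) and Chgb (-1.11, 0.00846). The median log2 difference was -2.08 over the B and plasma cell markers, -1.47 over the stroma and muscle markers, -0.57 over the macrophage markers, -0.21 over the T cell markers and -0.03 over the epithelial markers. Among the markers of other secretory epithelial cells the medians were 0.31 for goblet cells and -0.12 for enteroendocrine cells. Enteric neuron and glia markers had 3 of 8 tested, none called, and a median of 0.41. In females only, the calls on Slc26a3 (adjusted p = 0.135 by limma), Chgb (0.0728), Chga (0.413), Slc37a2 (0.164) and Col3a1 (0.0506) were lost. Chga was also lost with sex as a covariate (0.0925), Insl5 and Alas2 with the replicate block (0.0715 and 0.0630), Col3a1 with a pseudocount of 0.1 (0.0706), and all 10 with the mitochondrial share as a covariate. Of these 10 calls, 5 were lost without single mice, with an adjusted p of limma of up to 0.112. Insl5 was lost without p16cis/cis replicate 4, Alas2 without ApcMin/+ replicate 3 or p16cis/cis replicate 1 or 2, and Slc37a2 without ApcMin/+ replicate 3 or 5 or p16cis/cis replicate 1, 2 or 4. Chga was lost without ApcMin/+ replicate 2 or 3 or p16cis/cis replicate 1, 2 or 3, and Col3a1 without ApcMin/+ replicate 1, 2, 3 or 5 or p16cis/cis replicate 1 or 4.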

How the data were processed

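RNA-seq was measured in 9 mice. Per the methods, reads (BGISEQ-500) were aligned with BOWTIE2 and gene levels made with RSEM and DESeq2; the genome build is not given in the sources used here. The table the authors deposited holds a signal per gene and mouse: reads scaled by the size factor of that library. From the smallest step between values in a column the reads were recovered, and 100% of the positive values were whole to within 0.01. The file gives versioned Ensembl identifiers, and 52480 of 54146 were in GENCODE M21 with the same version.

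Genes that reached 10 in 4 or more mice were tested with limma 3.58.1 (R 4.3.3, trended variances) on log2(value + 1), so that log2 differences of low genes are understated. Groups came from the genotype labels. P-values were adjusted by Benjamini-Hochberg over all 14410 genes, and an adjusted p under 0.05 is a call. Alternatives were count models on these reads (DESeq2 1.42.0, edgeR 4.0.16), other scalings, filters, covariates and left-out mice. The fit was tested on simulated data. The members and lists were chosen with earlier results of these data known; the sex comparison, the interaction and the alternatives for pairs were chosen after seeing the data. Named from the other lists are all genes with an adjusted p under 0.05 and otherwise at most the 3 most abundant of a list; genes named for their sex difference, and Plcb2, Gnat3, Alox5, Il4ra, Il25, Siglecf, Chat and the genes given as untested, were chosen after their values were seen. Listed symbols 1810046K07Rik, Pou2af2, Gm684 and Pou2af3 were not analysed here, and Irag2 was present under its older symbol Lrmp. Same-numbered mice of the genotypes are different animals, their deviations correlated by 0.02 on average, and the numbers were not used as pairs. RefSeq promoter windows are of GRCm38.p6.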

Additional observations from a re-analysis of the deposited data

Results flagged for a closer look

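Hpgds in p16cis/cis replicate 4 (102) lay far below the other mice of its genotype (144 to 150.3), a gap of 0.870 of the range of the group, above Dixon's 95% critical value for 4 mice. It was the only 1 of 20 groups examined (10 genes in each genotype), and chance alone gives about 1 such group in 20 (0.05).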

How the results depend on the processing

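The number of the 10 genes called lower was 0 under every alternative but 1, without ApcMin/+ replicate 4 (Hpgds), so its range over left-out mice was 0 to 1. The number called higher, 1, ranged from 0 to 2 over left-out mice, was 2 with DESeq2 and with the replicate block, and 0 with no filter on low values, with sex as a covariate, in females only and with the mitochondrial share as a covariate. Counts over all genes are given above for these fits, except for left-out mice and the fit with no filter. The median log2 difference of 0.55 was 0.34 to 0.77 over left-out mice, 0.25 with sex as a covariate, -0.10 in females only and -0.69 with the mitochondrial share as a covariate, which called no gene. In females only the sign changed for Pou2f3 (-0.35), Trpm5 (-0.0748), Dclk1 (-0.84) and Avil (-0.13). With the mitochondrial share it changed for Pou2f3 (-0.66), Trpm5 (-0.96), Alox5ap (-0.000603), Dclk1 (-1.10), Avil (-0.51) and Sh2d6 (-0.71), and with sex as a covariate for Dclk1 (-0.0682). Without ApcMin/+ replicate 4 it changed for Pou2f3 (-0.0370) and Dclk1 (-0.0322). Il17rb, at -0.02, was 0.11 with the replicate block and ran from -0.17 to 0.17 over left-out mice. Over left-out mice Pou2f3 ran from -0.0370 to 0.59 and Dclk1 from -0.0322 to 0.67. The causes were not tested. The numbers do not pair the mice (correlations of -0.18, 0.07, 0.05 and 0.14), yet the replicate block matches mice by number, and it drops ApcMin/+ replicate 5. The number with an unadjusted p under 0.05 by sex, 5, was 3 on reads outside mitochondrial genes and 1 to 8 over left-out mice, with no share of all genes computed for those fits. The number of pairs with an adjusted p under 0.05, 28, was 28 to 31 under other scalings and a pseudocount of 0.1 and 0 to 28 over left-out mice. Other scalings moved the median of all genes by under 0.1. The 3 genes called lower in the other tuft lists were 0 to 6 and the 7 marker genes called lower 0 to 19 over all alternatives. Gfi1b, with as few as 4 reads, is limited by depth.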
